A study of Mus musculus with 12 samples.

Results

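The short 5' U piRNAs of adult mouse testis are the sequences of 26, 27 or 28 nt that begin with U. They were taken from a table of 1018402 distinct piRNA-length sequences by length and first base alone, whatever base stood at position 10. The rule found 211999 sequences, of which 66832 had 26 nt, 72467 had 27 nt and 72700 had 28 nt. Of these, 5328 had a mean of at least 5 reads scaled to library depth as RPM over the 12 libraries and were tested singly, among 22726 sequences of the table that did. These 5328 held 56.2% of the RPM of the short 5' U piRNAs, and the sums given here are over all 211999.

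PIWI-interacting RNAs (piRNAs) are small RNAs that guide PIWI proteins to transposon and other transcripts in germ cells. In the mouse testis MILI binds the shorter piRNAs and MIWI the longer ones, and a U at the first base marks piRNAs made by the primary pathway, while an A at base 10 is the mark of piRNAs made by ping-pong cleavage. The methyltransferase HENMT1 puts a 2'-O-methyl group on the last base of a piRNA. Sodium periodate oxidizes RNA ends that lack this group, and such ends are then not ligated into a library.

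All libraries were made from total testis RNA of C57BL/6 male mice aged 4 months, with small RNA of 17 to 40 nt. The groups were RNA after sodium periodate treatment at 10, 50 and 100 ng of input, and RNA before that treatment at 10, 50 and 100 ng. Each group had 2 technical replicates, so a p-value here speaks of library-to-library spread and carries no mouse-to-mouse spread, and the labels do not say how many mice gave the RNA. Spike-in RNA, some of it methylated, was added in proportion to the input.

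Steps of the RPM values gave 1924201 to 3347004 reads as their divisor after oxidation and 2578922 to 3347735 before it. Reads of short 5' U piRNAs were 357377 to 601026 after and 427751 to 556063 before. MicroRNAs, whose ends are not methylated, summed to 218 to 441 RPM after oxidation and 116696 to 138463 RPM before it, and unmethylated spike-ins had 7 to 25 reads after and 4123 to 15750 reads before. Within 26 to 28 nt, a first U made up 88.4% ± 0.463 of the RPM after oxidation and 87.9% ± 0.0827 before it (SD, n = 6 libraries each).

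The libraries after oxidation at 10 ng stood apart. At an equal 300000 reads of short 5' U piRNAs, they held 14706 and 10392 distinct sequences, against 46085 and 44235 before oxidation at the same input. At 50 ng the numbers were 40068 and 40604 after, against 56907 and 57354 before, and at 100 ng 45304 and 41535 after, against 59795 and 58172 before. Oxidized libraries thus held fewer distinct sequences at every input, most so at 10 ng. The replicates after oxidation at 10 ng had 3636 sequences in common, which were 24.3% and 34.6% of the sequences of each and 42.4% and 49.4% of their RPM. The replicates of the other groups shared 43.8% to 54.0% of their sequences, with 75.0% to 87.4% of the RPM. Of the 5328 tested sequences, 1037 were absent from both libraries after oxidation at 10 ng and 1925 from 1 of them.

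**Figure D1:**
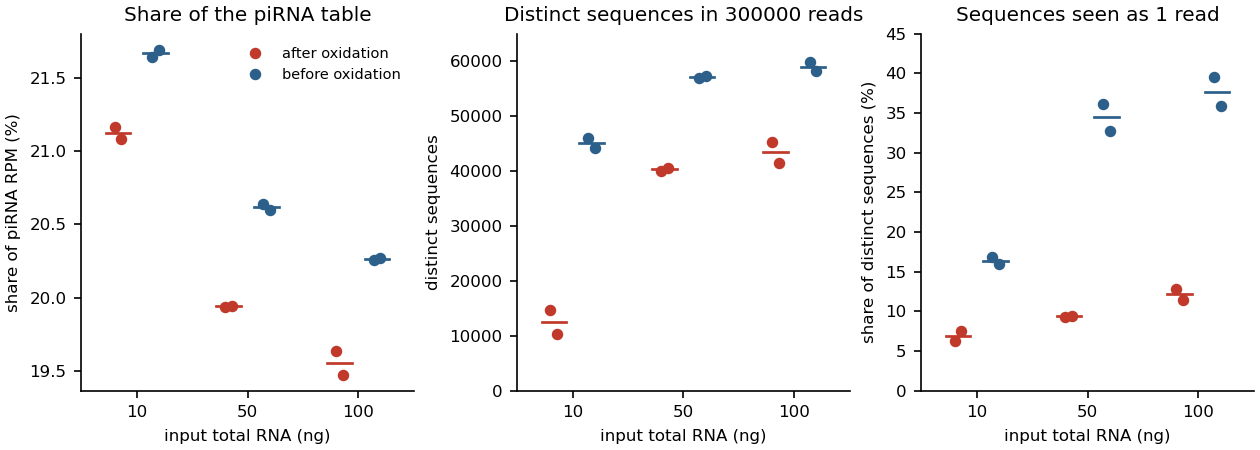
Share of the piRNA-table RPM held by short 5' U piRNAs (left), distinct short 5' U sequences in 300000 reads drawn from each library (middle) and share of distinct sequences seen as 1 read (right), by input in ng. Points are libraries, lines are means of 2, red is after and blue before oxidation. The share lies lower after oxidation at each input, and the libraries after oxidation at 10 ng hold 14706 and 10392 distinct sequences.

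The sequences on which single-sequence results turn are shown here with the first base, base 10 and the last base in capitals and T standing for U. They were placed by a perfect match to 1 position among the GENCODE M21 transcripts (build mm10). The first set holds the abundant ones, with 3 overlapping sequences of 1700001L05Rik and a sequence of each of Gm21269, Gm10505 and Gm21221. All are annotated non-coding RNAs, and each sequence lies within 1 exon.
Gm21269, 28 nt: TgtgaatttCaactgttggctccacagG
Gm10505, 28 nt: TtagaccagAgacagagattgaaaatgC
1700001L05Rik, 27 nt: TacgaaattCcagtagactctgacttC
1700001L05Rik, 28 nt, rank 8: TgactagttAcgaaattccagtagactC
1700001L05Rik, 28 nt, rank 31: TagttacgaAattccagtagactctgaC
Gm21221, 28 nt: TacttgacaGaccgcagcaaaccgcaaC
These sequences lie at chr7:73824994-73825021 (+), chr17:27325602-27325629 (+), chr15:83355242-83355268 (-), chr15:83355249-83355276 (-), chr15:83355245-83355272 (-) and chr5:149802307-149802334 (-). Ranks are by mean RPM before oxidation among the tested short 5' U piRNAs.

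The second set holds sequences of 1 site that differ by a few bases at an end and differ in how they fared in oxidation. The Gm43353 sequences run antisense to that unclassified transcript and start at the same base.
Gm43353, 26 nt: TgagatccaCaggtaaacctatctgA
Gm43353, 27 nt: TgagatccaCaggtaaacctatctgaA
Gm43353, 28 nt: TgagatccaCaggtaaacctatctgaaA
Gm10505, 27 nt, rank 772: TtagaccagAgacagagattgaaaatG
Gm10505, 27 nt, rank 261: TagaccagaGacagagattgaaaatgC
The 5' end of the Gm43353 sequences is at chr5:113325029 on the minus strand. The Gm10505 sequence of rank 772 lacks the last base of the 28 nt sequence, at chr17:27325602-27325628, and the one of rank 261 lacks its first base, at chr17:27325603-27325629.

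The third set holds sequences that were higher after oxidation, 2 of them from the non-coding antisense transcript Gm14244 and 1 from Gm21269. It also holds a pair from the non-coding Gm49794 that differed in sign. Averaged over inputs, the log2 fold change was 0.55 for its 26 nt sequence and -0.51 for its 27 nt sequence.
Gm14244, 28 nt: TacatgaatCttcagacctgatccaacC
Gm14244, 27 nt: TacatgaatCttcagacctgatccaaC
Gm21269, 27 nt: TggagattgAatttttgaaaaagcctT
Gm49794, 26 nt: TggaagcaaAggaagacactctgagT
Gm49794, 27 nt: TaacagtccActctggcagaagctgaC
They lie at chr2:127692183-127692210 (+), chr2:127692183-127692209 (+), chr7:73817222-73817248 (+), chr17:27358895-27358920 (+) and chr17:27355157-27355183 (+).

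Short 5' U piRNAs were still read after oxidation, and made up a slightly smaller part of the RPM of all piRNAs after it. A share of RPM does not say what part of the class was kept. They held 21.2% and 21.1% of the piRNA-table RPM after oxidation at 10 ng, against 21.7% and 21.7% before. At 50 ng they held 19.9% and 19.9% after, against 20.6% and 20.6% before, and at 100 ng 19.6% and 19.5% after, against 20.3% and 20.3% before. The groups did not overlap at any input. The mean was 20.2% ± 0.734 after and 20.8% ± 0.655 before (SD, n = 6 each), a difference of -0.64 points. Counted as distinct sequences, whatever their RPM, their share was higher after oxidation, by 2.12 points (exact permutation, adjusted p = 0.0116). Set against the 29 to 32 nt sequences with a 5' U, the class of MIWI size, the summed RPM of the short ones had a log2 ratio of -1.57 ± 0.0941 after and -1.47 ± 0.0657 before, a difference of -0.11, lower in all 6 same-numbered pairs of libraries. Oxidation labels were exchanged within each input in an exact 2-sided permutation test, which gave p = 0.00926 for both differences, the smallest p that 216 reassignments can give, and 0.0113 after Benjamini-Hochberg adjustment over 11 single values.

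The direction of the sum depended on what it was set against. The summed RPM of the short 5' U piRNAs was 194410 and 185727 after oxidation at 10 ng, against 176502 and 176319 before. It was 183285 and 183157 after at 50 ng, against 165864 and 166101 before, and 179571 and 176689 after at 100 ng, against 161856 and 161233 before. The log2 difference was 0.13, with the same exact permutation p of 0.00926 (adjusted 0.0113). Scaled to reads other than microRNA reads it was -0.07, and per methylated spike-in read it was -2.86. Methylated spike-ins had 212579 to 300939 reads after oxidation and 28325 to 42523 before it.

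The 3 lengths kept nearly the same proportions. The 27 nt sequences made up 34.5% ± 0.301 of the short 5' U RPM after oxidation and 33.9% ± 0.161 before it (SD, n = 6 each), higher in all 6 same-numbered pairs (exact permutation p = 0.00926, adjusted 0.0113). Over sequences of at least 5 RPM alone the difference was 0.157 points and did not pass (adjusted p = 0.275). The 26 nt share was 29.8% ± 0.714 after and 30.1% ± 0.225 before, and the 28 nt share was 35.7% ± 0.856 after and 36.0% ± 0.286 before. Neither of these passed the exact permutation test (adjusted p = 0.153 and 0.287). The 26 nt share differed by 0.18, -0.30 and -0.89 points at 10, 50 and 100 ng, and the 28 nt share by -0.97, -0.14 and 0.37 points.

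Sequences with an A at base 10 formed a smaller share after oxidation. They were 27.8% and 27.8% of the short 5' U RPM after oxidation at 10 ng, against 31.1% and 31.5% before. At 50 ng they were 30.8% and 29.8% after, against 31.7% and 31.98% before, and at 100 ng 30.7% and 31.04% after, against 31.8% and 31.8% before. A was also lower at most other positions, by -2.01 points at base 9, -1.77 at base 3 and -1.88 at base 19, so the difference was not that of base 10 alone. At base 10 the share was lower in all 6 same-numbered pairs, by -2.01 points on average (exact permutation p = 0.00926, adjusted 0.0113). The differences at 10, 50 and 100 ng were -3.52, -1.60 and -0.90 points. In the 29 to 32 nt sequences with a 5' U the A10 share was 32.9% ± 0.698 after and 33.7% ± 0.154 before. The short class lost 1.18 points more, as the difference of the 2 classes was -3.22 ± 0.828 after and -2.04 ± 0.255 before. This had an exact permutation p of 0.00926 (adjusted 0.0153 over 43 further values, chosen after seeing the data). The 27 nt sequences had the clearest difference of the 3 lengths, with an A10 share of 27.7% ± 0.948 after and 31.1% ± 0.383 before, apart by -4.32, -3.01 and -2.77 points at 10, 50 and 100 ng.

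U at base 10 formed a larger share after oxidation, as did U along most of the sequence, while G at base 10 was 23.4% ± 0.314 after and 24.9% ± 0.377 before. U at base 10 made up 29.8% and 29.3% after oxidation at 10 ng, against 22.7% and 22.2% before. It made up 25.3% and 27.2% after at 50 ng, against 22.9% and 22.9% before, and 25.8% and 25.6% after at 100 ng, against 23.4% and 23.5% before. The groups did not overlap at any input. In the 29 to 32 nt sequences with a 5' U, U at base 10 was 27.3% ± 1.92 after and 23.4% ± 0.842 before, a like gain. The change in the difference of the 2 classes did not pass (0.38 points, exact permutation, adjusted p = 0.106). Bases other than 10 and the last were not set against the longer class. Within the short class, the summed RPM of sequences with U10 differed by a log2 value of 0.37 averaged over the inputs. That of sequences with A10 differed by 0.03, C10 by 0.07 and G10 by 0.04. Each base from 2 to 26 had a higher U share after oxidation averaged over inputs, the smallest difference being 0.21 points at base 25. The mean U share over bases 2 to 12 was 26.9% ± 1.77 after and 23.3% ± 0.428 before. Over bases 13 to 25 it was 27.1% ± 0.580 after and 25.4% ± 0.522 before. Both stretches were chosen after seeing the data (exact permutation p = 0.00926 and adjusted p = 0.0153 for both). G was the base that lost most near the 5' end: over bases 2 to 12 its share was 23.8% ± 0.255 after and 25.6% ± 0.224 before. At base 2 alone G was 35.9% after and 40.4% before.

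These base differences were larger at lower input. U at bases 2 to 12 differed by 6.23, 2.79 and 1.71 points at 10, 50 and 100 ng, and an exact permutation of the input labels within each oxidation state, with 8100 reassignments, gave an adjusted p of 0.0159 for that dependence. The same test gave 0.0182 for U at base 10, 0.0159 for G at bases 2 to 12 and 0.0159 for U at bases 13 to 25. In the 29 to 32 nt class U at base 10 differed by 7.11, 2.99 and 1.48 points, with an adjusted p of 0.0159 in that test. All these values were among the 43 chosen after seeing the data, so their p-values are for a pattern already seen. None of the 11 values listed first passed the test of inputs, the A10 share included (adjusted p = 0.935). Without the 10 ng libraries, U at bases 2 to 12 still differed in the same direction, as the values at 50 and 100 ng show. The fewer distinct sequences after oxidation moved with this pattern, and their part in it was not tested.

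**Figure D2:**
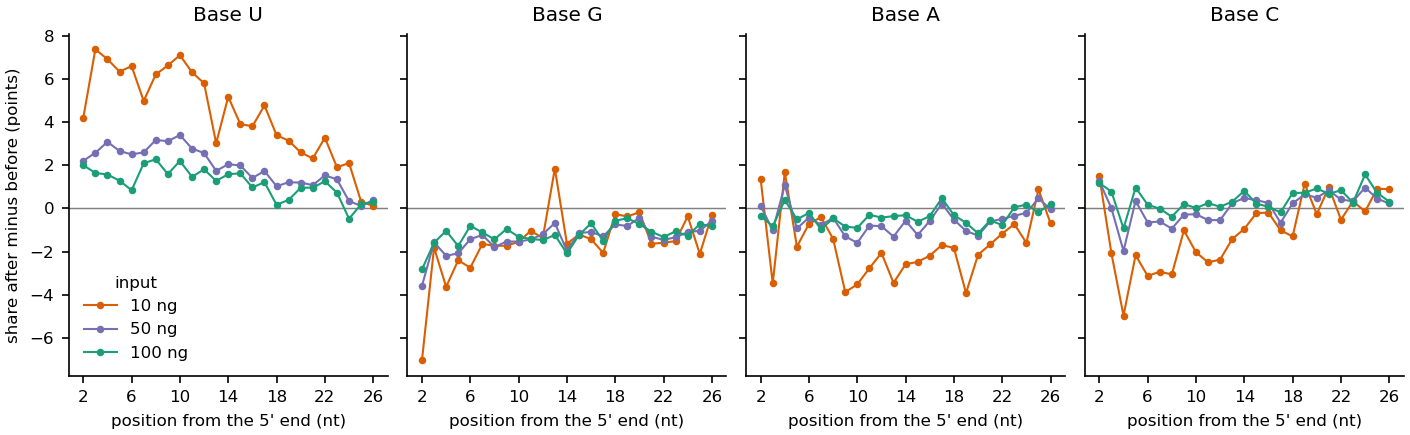
Difference in the share of each base among short 5' U piRNAs, after minus before oxidation in percentage points, by position from the 5' end, weighted by RPM. Lines are inputs, each point a difference of means of 2 libraries. U lies above 0 at nearly every position, by 7.11 points at base 10 and 10 ng of input, and G lies mostly below 0.

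The number of U residues in bases 2 to 12 ordered the sequences by their difference between states. Sequences with no U there (10377 of them) had a log2 ratio of summed RPM after to before of -1.12, -0.32 and -0.14 at 10, 50 and 100 ng. Those with 6 or more U (15789) had 1.34, 0.77 and 0.48. At 10 and 50 ng each added U came with a higher ratio, and at 100 ng the ratios of sequences with 4 and 5 U, 0.37 and 0.35, were alike. Sequences with no U held 4.27% ± 0.959 of the RPM after and 6.59% ± 0.550 before, and those with 6 or more held 6.54% ± 1.76 after and 3.82% ± 0.144 before (SD, n = 6 each). For G the order was the opposite: sequences with no G had 0.86, 0.69 and 0.52 at the 3 inputs, and those with 6 or more had -0.73, -0.43 and -0.39.

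**Figure D3:**
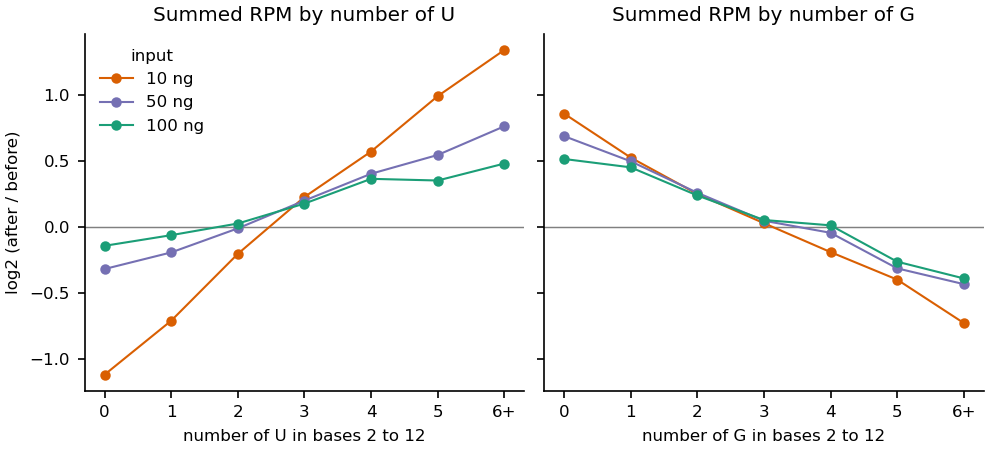
Log2 ratio of the summed RPM after oxidation to that before it, for short 5' U piRNAs grouped by the number of U (left) and of G (right) in bases 2 to 12. Lines are inputs, and the ratio is of means of log2 sums over 2 libraries. At 10 ng it runs from -1.12 with no U to 1.34 with 6 or more.

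The last base, the one that carries the methyl group, also differed. Sequences ending in G made up 8.76% and 8.96% of the short 5' U RPM after oxidation at 10 ng, against 11.5% and 11.8% before. At 50 ng they made up 9.06% and 9.48% after, against 11.1% and 10.9% before, and at 100 ng 9.04% and 8.67% after, against 10.4% and 10.3% before. No library after oxidation reached the lowest one before it. The mean shares were 9.00% ± 0.283 after and 11.01% ± 0.588 before. Sequences ending in A made up 16.8% ± 0.212 after and 17.5% ± 0.307 before. Those ending in C, the most common last base, made up 42.1% ± 0.877 after and 40.1% ± 0.341 before, and those ending in U 32.1% ± 1.11 after and 31.4% ± 1.17 before. All 4 differences had the same direction in all 6 same-numbered pairs and an exact permutation p of 0.00926 (adjusted 0.0113). That of last U did not pass when distinct sequences were counted (0.0502 points, adjusted p = 0.843) or without before 10 ng replicate 2 (adjusted p = 0.0566).

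**Figure D4:**
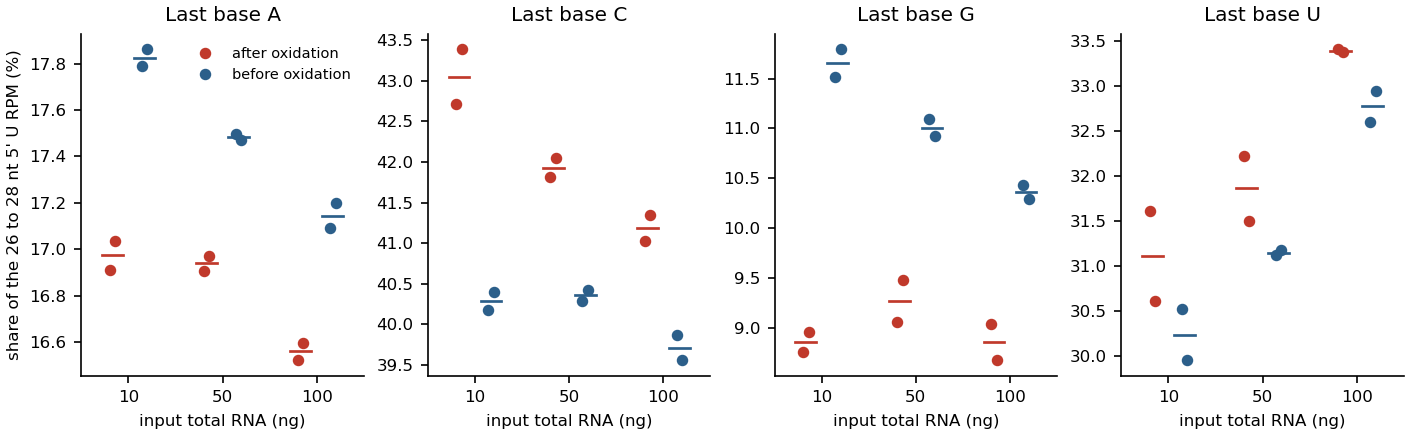
Share of the RPM of short 5' U piRNAs that ends in A, C, G or U, in percent, by input in ng. Points are libraries, lines means of 2, red after and blue before oxidation, and the axes do not start at 0. The share ending in G lies between 8.67% and 9.48% in the 6 libraries after oxidation and between 10.3% and 11.8% in those before it.

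In summed RPM, sequences ending in G had 16536 ± 708 after oxidation and 18524 ± 1729 before it, the 1 class of last base with a negative log2 difference, of -0.29, -0.11 and -0.09 at 10, 50 and 100 ng. Those ending in C had 77330 ± 3887 after and 67405 ± 3121 before, with log2 differences of 0.20, 0.20 and 0.19. The gain of C by length was 0.11 in 26 nt sequences, 0.23 in 27 nt sequences and 0.23 in 28 nt sequences on the log2 scale. As a share, C at the end of 28 nt sequences was 44.0% ± 0.481 after and 40.8% ± 0.218 before (exact permutation p = 0.00926, adjusted 0.0153), while at the end of 26 nt sequences it was 38.9% ± 1.15 after and 38.9% ± 0.635 before (adjusted p = 1). The share ending in G was lower after oxidation at each of the 3 lengths, by -1.74, -1.83 and -2.40 points at 26, 27 and 28 nt.

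The longer 5' U class had a like loss of terminal G, 9.37% ± 0.457 after and 10.998% ± 0.385 before, and its difference from the short class did not pass the exact permutation test (-0.38 points, adjusted p = 0.183). The classes differed in the other last bases. C at the end of 29 to 32 nt sequences was 37.8% ± 2.61 after and 34.1% ± 0.480 before, a larger gain than in the short class by 1.69 points. U at the end was 37.7% ± 2.65 after and 39.6% ± 0.582 before, so that U rose in the short class relative to the longer one by 2.63 points, at 10, 50 and 100 ng by 5.36, 1.92 and 0.60. Both contrasts of the classes had an exact permutation p of 0.00926 (adjusted 0.0153), and the second varied with input (adjusted p = 0.0159).

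Most short 5' U piRNAs began where a longer piRNA began. In RPM, 94.0% ± 0.858 after oxidation and 94.3% ± 0.175 before it belonged to sequences whose first 26 bases also opened a 29 to 32 nt sequence of the table, 152001 of the 211999. The share whose 3' end was also that of a 29 to 32 nt sequence was 74.5% ± 4.39 after and 76.2% ± 1.10 before. Neither passed the exact permutation test (adjusted p = 0.255 and 0.199). These shares rest on presence anywhere in the table and rise with its depth. Among 10244 groups of sequences with the same first 26 bases and at least 10 RPM in 26 to 32 nt, a median of 16.2% after and 16.2% before was in 26 to 28 nt. In 23.2% of these 5' ends after and 23.0% before, over 50% of the RPM was in 26 to 28 nt. The short part of each 5' end correlated between states with r = 0.91 across the 5' ends, which share libraries and depth. Summed over these 5' ends, the short part was 23.0% ± 1.02 after and 24.1% ± 0.807 before, lower in all 6 same-numbered pairs (exact permutation p = 0.00926, adjusted 0.0153).

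The Gm21269 sequence of 28 nt shows such a site. It is the third most abundant short 5' U piRNA before oxidation, and a 30 nt sequence that begins 2 bases upstream shares its 3' end and matched the same transcript.
Gm21269, 28 nt, as above: TgtgaatttCaactgttggctccacagG
Gm21269, 30 nt, same 3' end: TatgtgaatTtcaactgttggctccacagG
The 28 nt sequence had 173 and 214 RPM after oxidation at 10 ng, against 483 and 428 before. It had 450 and 329 RPM after at 50 ng, against 574 and 564 before, and 561 and 513 after at 100 ng, against 584 and 541 before. The 30 nt sequence had 5375 ± 1883 RPM after and 5128 ± 1321 before (SD, n = 6 each). The 29 nt sequence between them, which starts with A, had 16.7 ± 12.6 RPM after and 26.6 ± 4.72 before. With the same 5' end as the 28 nt sequence, the 26, 27 and 29 nt forms had 19.8, 18.7 and 82.3 RPM after and 27.3, 40.1 and 96.4 RPM before. The 28 nt form was the most abundant of its 5' end and the 30 nt form of its 3' end in both states.

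Transcript matches covered a minor part of the short 5' U piRNAs. A perfect match to GENCODE M21 transcripts was found for 55213 of the 211999, with 15.7% ± 0.353 of their RPM after oxidation and 15.9% ± 0.249 before it. No genome sequence was searched, so the other sequences were not placed here. Sense matches to non-coding transcripts alone, at 1 position, held 9.75% ± 0.516 after and 9.81% ± 0.183 before. Sense matches to 3' untranslated regions held 2.98% ± 0.105 after and 2.53% ± 0.0701 before, higher in all 6 same-numbered pairs (exact permutation p = 0.00926, adjusted 0.0153), by 0.64, 0.41 and 0.30 points at 10, 50 and 100 ng. Their bases 2 to 25 held 27.5% U and those of the non-coding matches 25.4% U, and the part of this in the difference was not tested.

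The 10 transcripts with the most short 5' U RPM were 8 non-coding RNAs and the coding genes Tbl2 and 1700006A11Rik, and all matched in sense. Gm21269 (chr7:73816546-73838898, +) had 3218 ± 306 RPM after oxidation and 2949 ± 95.8 before, and Gm49794 (chr17:27354111-27367492, +) had 2761 ± 269 after and 2730 ± 149 before. Neither passed the exact permutation test (adjusted p over the 10 transcripts = 0.0661 and 0.759). 1700001L05Rik (chr15:83353847-83367282, -) was higher after oxidation, with 1943 and 1843 RPM after at 10 ng, against 1743 and 1752 before, and 3654 and 4025 after at 100 ng, against 2505 and 2635 before. Gm10505 (chr17:27325035-27344833, +) was lower after oxidation at every input, with 1040 ± 82.3 RPM after and 1599 ± 228 before. Both had an exact permutation p of 0.00926 (adjusted 0.0231). Their log2 differences in RPM were 0.41 and -0.61, beside 0.13 for the sum of all short 5' U piRNAs. Single sequences held a large part of the differences at Gm10505 and 1700001L05Rik. At Gm10505 the 28 nt sequence shown above had 158 ± 93.0 RPM after and 478 ± 107 before. At 1700001L05Rik the 27 nt sequence had 809 ± 437 after and 469 ± 193 before. These transcripts were not tested without them.

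Of the other 6, Gm10619 had 821 ± 80.2 RPM after and 656 ± 68.8 before, 1700029M20Rik 499 ± 88.3 after and 418 ± 46.8 before, and 1700006A11Rik 419 ± 50.8 after and 337 ± 17.5 before. These 3 were higher in RPM after oxidation (exact permutation, adjusted p = 0.0231, 0.0309 and 0.0309). Their log2 differences at 100 ng were 0.44, 0.14 and 0.11, beside 0.14 for the sum of all short 5' U piRNAs. None of the 10 transcripts was tested relative to that sum. Tbl2, a coding gene, had 810 and 842 RPM after at 10 ng, against 323 and 334 before. At 100 ng it had 601 and 582 after, against 391 and 373 before. Its short 5' U piRNAs were 393 sequences over all libraries together. Of these, 27 and 17 were present after oxidation at 10 ng, against 88 and 70 before. At 100 ng 79 and 70 were present after, against 115 and 127 before. The log2 differences of Tbl2 at 10, 50 and 100 ng were 1.33, 0.83 and 0.63. They varied with input (exact permutation of inputs, adjusted p = 0.0148 over the 10 transcripts), and the 10 ng value rests on few sequences. D130017N08Rik and Gm2762 did not pass (adjusted p = 0.586 and 0.324). Without Tbl2 the 3' untranslated matches held 2.61% ± 0.0567 after and 2.32% ± 0.0518 before.

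Among the 5328 tested sequences, limma-trend on log2(RPM + 1) with Benjamini-Hochberg adjustment over all 22726 called 743 higher and 1242 lower after oxidation, averaged over inputs. That was 13.9% and 23.3% of them, where 21.2% of all tested sequences were called higher and 22.8% lower. Of the 13969 tested 29 to 32 nt sequences with a 5' U, 24.1% were called higher and 21.3% lower. The median log2 fold change was -0.29 in the short class and -0.14 over all tested sequences. The split rests on the filter and on the 10 ng libraries: with the 5 RPM mean asked before oxidation alone, 321 were higher and 1902 lower, and without the 10 ng libraries 843 were higher and 715 lower. With library sizes from TMM (edgeR) 421 were higher and 1720 lower, with DESeq2's size factors 419 and 2170, and relative to methylated spike-ins 10 and 4877. Under these 3 scalings the median of all tested sequences was -0.40, -0.64 and -2.76, so each higher or lower in RPM is relative to the other sequences of a library. Calls over all tested sequences were not counted under these other filters and scalings.

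In the fit of all 12 libraries the calls were most numerous at 10 ng. There, 855 short sequences were called higher and 1702 lower, where 21.4% of all tested sequences were called higher and 31.5% lower. At 50 ng the counts were 106 higher and 115 lower, beside 5.77% and 3.44% of all, and at 100 ng 26 higher and 50 lower, beside 1.91% and 2.16% of all. Scaling moved these splits. At 10 ng TMM gave 353 higher and 1898 lower, DESeq2 457 and 2169, and methylated spike-ins 65 and 4428. At 50 ng centring on library medians gave 66 higher and 152 lower, quantile normalization 190 and 454, TMM 33 and 73, DESeq2 78 and 469, and methylated spike-ins 6 and 4086. At 100 ng the same 5 gave 12 and 59, 52 and 217, 7 and 34, 24 and 236, and 0 and 3776. The shared estimate of spread in this fit includes the libraries after oxidation at 10 ng, and without the 10 ng libraries 979 were called at 50 ng and 535 at 100 ng. In fits of only the 4 libraries compared, 1581 were called at 10 ng, 508 at 50 ng and 899 at 100 ng. An oxidation effect that varied with input was called for 1222 short sequences, 22.9% of them beside 23.1% of all.

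By last base, 33.6% of 458 tested sequences ending in G were called lower and 6.55% higher, averaged over inputs. Of 2230 ending in C, 20.1% were lower and 15.9% higher. Of 1414 with U at base 10, 18.7% were higher and 15.8% lower, and of 1616 with A at base 10, 12.1% were higher and 26.4% lower. The median log2 fold changes of the 4 groups were -0.66, -0.18, 0.01 and -0.44. By length the calls were close, with 12.9%, 15.4% and 13.5% higher and 21.4%, 23.0% and 25.1% lower at 26, 27 and 28 nt. Beside these, 21.2% of all tested sequences were called higher and 22.8% lower. Calls by base were not counted over all tested sequences, so whether these splits are particular to the short class was not tested.

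Of the 6 most abundant sequences, 5 had a negative log2 fold change at 10 ng and rank 5, the 27 nt sequence of 1700001L05Rik, had 0.24. The rank is by RPM before oxidation, the reference of the fold change, which favours falls. The median at 10 ng was -0.93 in the short class and -0.69 over all tested sequences. Ranks 1, 2 and 6 before oxidation had no transcript position and are given by their features. Rank 1, a 26 nt sequence with C at base 10 and at the end, had 190 and 179 RPM after oxidation at 10 ng, against 1107 and 1146 before, and 883 and 877 after at 100 ng, against 815 and 838 before. Its log2 fold change was -2.61 at 10 ng and 0.09 at 100 ng, and the difference between inputs passed limma's F test (adjusted p = 0.000455). Rank 2, of 28 nt with U10 and a last C, had 378 and 381 RPM after at 10 ng, against 662 and 609 before, but 2109 and 2082 after at 100 ng, against 1085 and 1077 before. Rank 6, of 26 nt with A10 and a last A, had log2 fold changes of -0.70, 0.46 and 0.53 at 10, 50 and 100 ng. All 3 were thus relatively scarcer in the oxidized libraries at 10 ng than at 100 ng.

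The placed abundant sequences did not move together. The Gm10505 sequence of 28 nt had 73.5 and 21.3 RPM after oxidation at 10 ng, against 541 and 626 before. It had 271 and 191 RPM after at 50 ng, against 503 and 488 before, and 180 and 213 after at 100 ng, against 370 and 341 before. All 6 libraries after oxidation lay below all 6 before it, with a log2 fold change of -1.94 ± 0.260 (SE, limma, adjusted p = 0.000410), which without the 10 ng libraries was -0.99 (limma, adjusted p = 0.000142). The 27 nt sequence of 1700001L05Rik went the other way, with 354 and 281 RPM after at 10 ng, against 270 and 262 before, and 1212 and 1352 after at 100 ng, against 677 and 712 before. Its log2 fold change was 0.67 ± 0.0838 (limma, adjusted p = 0.000282), and under DESeq2's size factors it was -0.00344. The 28 nt sequences of the same site, ranks 8 and 31, had log2 fold changes of 0.12 and 0.23 that did not pass (limma, adjusted p = 0.380 and 0.199). The Gm21221 sequence had 45.1 ± 28.3 RPM after and 159 ± 61.7 before, with a log2 fold change of -2.23 ± 0.345 (limma, adjusted p = 0.000869). At 10, 50 and 100 ng it was -4.80, -1.16 and -0.72, and without the 10 ng libraries it was -0.94 (limma, adjusted p = 0.000210).

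Among the named falls was a sequence at 0 in every library after oxidation. Rank 522, of 28 nt with A10 and a last C, had 29.7 to 46.3 RPM in the 6 libraries before oxidation and was at 0 in all 6 after it. Against the floor of 3 reads over those 6 libraries, 0.191 RPM, it was at least 189-fold lower. Rank 63, of 27 nt with A10 and a last A, had 0 and 0 RPM after at 10 ng, against 111 and 147 before, and 5.08 and 6.95 after at 100 ng, against 174 and 176 before. Its log2 fold change was -5.33 ± 0.179 (SE), and the groups did not overlap. Ranks 157 and 846, of 27 and 28 nt, had log2 fold changes of -4.51 and -4.22, and neither they nor ranks 63 and 522 had a transcript position. All 4 fell at every input, and they were picked as the most negative fold changes among calls. Ranks 63, 522 and 846 had means under 5 RPM after oxidation. They thus passed the filter only through the libraries before it, and the values of all 4 are given with no test.

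At the Gm43353 site, forms that differed only at the 3' end had unlike fold changes, and the difference between forms was not tested. The 26 nt form had 33.8 and 49.4 RPM after oxidation at 10 ng, against 69.3 and 59.9 before, and 211 and 281 after at 100 ng, against 151 and 159 before. The 27 nt form, longer by an A, had 0 and 0 RPM after at 10 ng, against 33.9 and 50.1 before, and 12.2 and 15.8 after at 100 ng, against 46.5 and 53.7 before. The 28 nt form had 6.53 ± 4.90 RPM after and 40.9 ± 8.09 before (SD, n = 6 each). The log2 fold changes were 0.22 ± 0.149, -3.03 ± 0.277 and -2.88 ± 0.599 for 26, 27 and 28 nt (limma, adjusted p = 0.265, 5.66e-05 and 0.00407). Without the 10 ng libraries they were 0.65, -1.84 and -2.60 (limma, adjusted p = 0.00444, 0.000130 and 2.26e-05), so that the 26 nt form was then called higher in RPM. The sign for the 26 nt form depended on scaling. Over all inputs it had -0.0275 under quantile normalization, -0.22 under TMM, -0.45 under DESeq2 and -2.74 relative to methylated spike-ins. The 27 and 28 nt forms fell in all 6 same-numbered pairs, and the 26 nt form was higher in 4 of 6.

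At the Gm10505 site, the 27 nt form that ends 1 base before the 28 nt form, at a G, had 0 to 4.88 RPM in the 6 libraries after oxidation and 14.5 to 39.2 RPM before. Its log2 fold change was -3.62 ± 0.285 (SE), against -1.94 for the 28 nt form that ends in C. With a mean of 1.62 RPM after oxidation, it passed the filter only through the libraries before it, and is given with no test. The 27 nt form with the later 5' end and the same last C had 0 and 0 RPM after at 10 ng, against 60.01 and 74.4 before, but 34.7 and 36.3 after at 100 ng, against 52.3 and 42.4 before. Its log2 fold change was -6.08 at 10 ng and -0.40 at 100 ng. This sequence was picked by the p-value of limma's F test of inputs, so these values are given with no test. Over all 496 tested pairs of 26 and 27 nt with the same first 26 bases, the log2 fold changes of the 2 forms correlated with r = 0.58 and had a median absolute difference of 0.73. Over 576 pairs of 27 and 28 nt these were 0.57 and 0.74. The forms of a pair share all libraries. They differed by over 2 in 32 and 35 of the pairs. Both forms were called in 110 and 133 pairs, and in 105 and 123 of these they moved in the same direction.

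**Figure D5:**
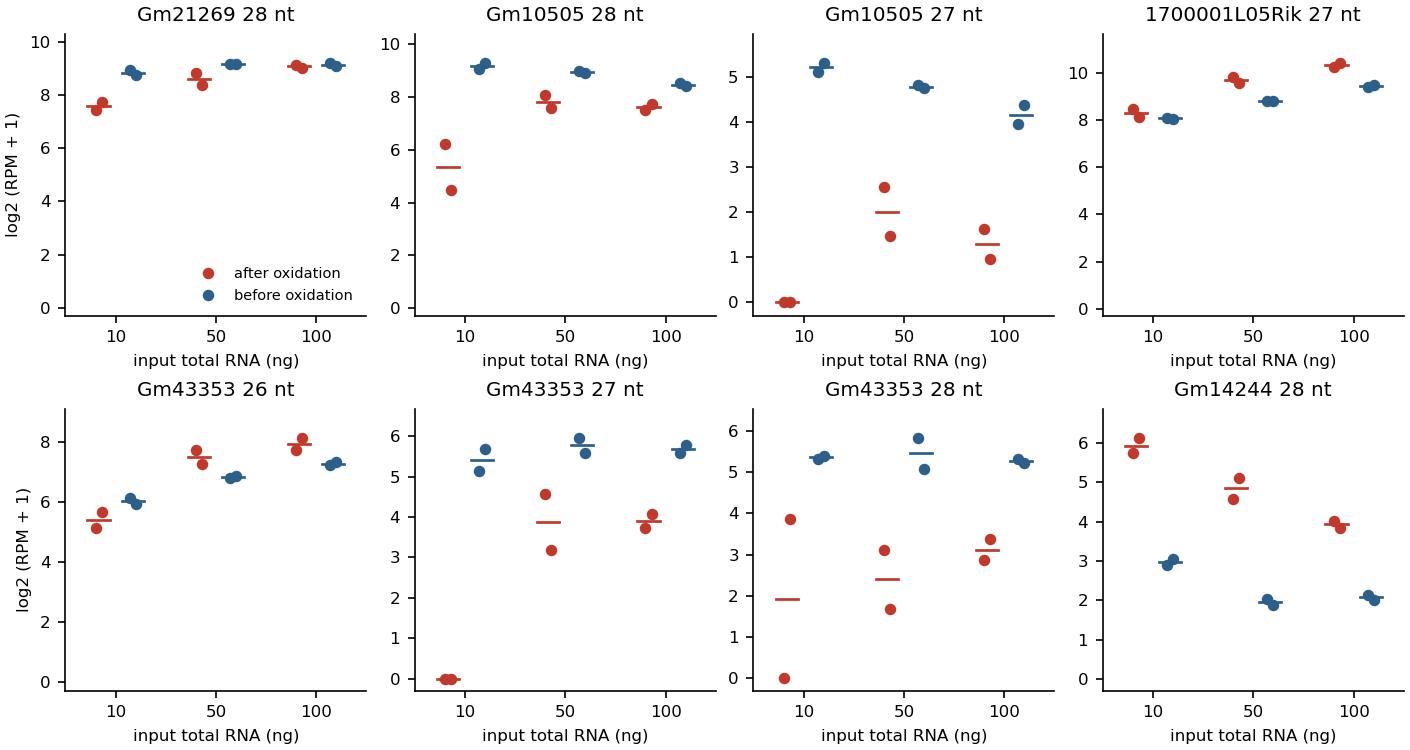
Levels of 8 placed short 5' U piRNAs in log2(RPM + 1), by input in ng. Points are libraries, lines means of 2, red after and blue before oxidation, and the Gm10505 27 nt sequence is the one of rank 772. The 27 and 28 nt forms at Gm43353 lie lower after oxidation, with a log2 fold change of -3.03 and -2.88, and the Gm14244 sequence lies higher.

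Of the named sequences that were higher after oxidation, rank 702 was also well above the filter before it. Rank 702, of 28 nt with A10 and a last C, had 625 and 739 RPM after oxidation at 10 ng, against 21.8 and 12.3 before. It had 176 and 256 RPM after at 50 ng, against 26.8 and 30.8 before, and 142 and 119 after at 100 ng, against 41.5 and 39.6 before. Its log2 fold change of 3.26 ± 0.174 (limma, adjusted p = 5.43e-06) varied with input (F test, adjusted p = 0.00173). Ranks 5279, 5253 and 5128 had 0.923, 1.2005 and 2.14 RPM on average before oxidation, and both Gm14244 sequences and the Gm21269 sequence of 27 nt also lay under 5 RPM before it. These 6 passed the filter of 5 RPM over 12 libraries only through the libraries after oxidation, so they had to differ, and their values are given with no test. The sequences of Gm14244 had 34.4 ± 22.2 and 19.3 ± 15.9 RPM after and 4.32 ± 1.99 and 2.31 ± 1.80 before, for 28 and 27 nt. The log2 fold changes at 10, 50 and 100 ng were 2.96, 2.89 and 1.85 for the 28 nt form and 3.65, 3.19 and 0.46 for the 27 nt form. The Gm21269 sequence of 27 nt, from another part of the transcript than the 28 nt one, had 18.2 ± 8.17 RPM after and 2.83 ± 2.14 before, with 4.23, 1.98 and 1.08 at the 3 inputs on the log2 scale.

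In 107 of the 5328 tested sequences 1 library held over 50% of the summed RPM, and in all 107 that library was one after oxidation at 10 ng. Such sequences were not counted among all tested sequences. The Gm49794 sequences show both signs at 10 ng. The 26 nt one had 309 and 250 RPM after oxidation at 10 ng, against 117 and 110 before, and 116 and 156 after at 100 ng, against 135 and 134 before. The 27 nt one had 45.8 and 58.7 RPM after at 10 ng, against 157 and 149 before, and 176 and 201.5 after at 100 ng, against 161 and 145 before. Their fold changes thus differed in sign at 10 ng and were small at 100 ng, with log2 values of -0.0018 and 0.30.

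The number of calls between inputs depended on which libraries set the spread. Between 10 and 100 ng before oxidation, 42 short sequences were called higher at 10 ng and 25 lower (limma, beside 1.06% and 0.744% of all tested sequences). After oxidation 668 were higher at 10 ng and 1565 lower, beside 12.5% and 28.8% of all. Relative to methylated spike-ins the split was 205 and 42 before oxidation and 148 and 1994 after it, and after it quantile normalization gave 816 and 958, TMM 182 and 1657, and DESeq2 409 and 1779. In fits of only the 4 libraries compared, 1073 were called before oxidation and 1297 after it, and the difference between the counts was not tested as such. Leaving out an after 10 ng replicate gave 706 or 712 calls before oxidation. Leaving out any 1 of the 10 or 100 ng libraries before oxidation left 0 of the 67 limma calls. With all libraries, 753 had an unadjusted p under 0.05, and edgeR called 42 and DESeq2 288. Rank 158, of 26 nt with A10 and a last C, had 0.462 and 0 RPM after at 10 ng and 77.4 and 87.5 after at 100 ng, against 82.5 and 90.4 before at 10 ng and 99.5 and 87.2 before at 100 ng. It was present at like levels in the 10 other libraries, and its log2 fold change was -6.17 at 10 ng and -0.18 at 100 ng.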

How the data were processed

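The authors deposited a table of RPM values (reads scaled to library depth) for each piRNA-length sequence in 12 libraries, with tables of microRNAs and spike-ins. Bowtie and the builds mm10 and hg38 are named per the submitters' processing notes. The sources used here do not give what RPM is divided by or what hg38 was for. Steps of the deposited RPM values gave whole reads within 0.01 for 100% of values in every library, and these recovered counts served the count tests and depths; the spike-in tables give counts as deposited. Members and lists were chosen with earlier results of these data known.

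Shares and sums over all 211999 short 5' U sequences were tested by exact 2-sided permutation of oxidation labels within inputs (216) or of inputs within states (8100). Beside 11 planned values, 43 further ones were chosen after seeing the data. Single sequences whose mean reached 5 RPM entered limma-trend (limma 3.58.1, R 4.3.3) on log2(RPM + 1), 6 group means, at an adjusted p of 0.05. edgeR 4.0.16 and DESeq2 1.42.0 on recovered counts, other scalings, filters, pseudocounts, a replicate block and leaving out each library were alternatives. Both tests were tested on simulated data. Python 3.11.15, pandas 2.3.3, numpy 2.4.6, scipy 1.17.1 and matplotlib 3.10.9 were used. Floors of 3 reads cover counting error only, and PCR reads without molecular identifiers are not independent molecules.

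The sequences named were the 6 most abundant before oxidation, the 4 most negative and 4 most positive fold changes among calls with 1 direction in all 6 pairs at a mean of at least 10 RPM, the most abundant of each length with and without A10, the 2 smallest input interaction p-values, length variants of the most abundant, and the same rules among sequences placed on a transcript. Letters of sequences without a transcript position are not printed.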

Additional observations from a re-analysis of the deposited data

Results flagged for a closer look

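The values listed here are those whose oxidation difference varied with input, by an exact permutation of input labels or, for single sequences, limma's F test. Each value is the difference at 10 ng minus that at 100 ng. Those in points were all among the 43 values chosen after seeing the data. In shares of the short 5' U RPM it was 4.91 points for U at base 10, -2.05 points for C at base 10, 4.52 points for U at bases 2 to 12, -1.001 points for G at bases 2 to 12, -2.46 points for C at bases 2 to 12 and 2.22 points for U at bases 13 to 25. It was 4.75 points for the share ending in U in the short class minus that in the 29 to 32 nt class, 0.346 points for sense matches to 3' untranslated regions, and 0.70 on the log2 scale for Tbl2.

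Among the 5328 tested short 5' U sequences 1222 were called for such a variation, 22.9% of them beside 23.1% of all tested sequences. On the log2 scale the value was -6.00 for the sequence of rank 158, -5.44 for that of rank 253, -5.69 for the Gm10505 sequence of 27 nt and rank 261, and -5.58 for the Gm10619 sequence of 26 nt. All 4 were picked by the p-value of limma's F test, and had at most 1 read per library after oxidation at 10 ng. The Gm10619 sequence had 0 and 0 RPM after at 10 ng, against 38.6 and 23.96 before, and 55.0 and 51.8 after at 100 ng, against 33.0 and 36.3 before. Groups of 2 libraries are too small for a test of single libraries that stand apart.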

How the results depend on the processing

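Of the single values, all but those named here kept direction and call, except that there was no test without the 10 ng libraries, where direction alone was compared. Over sequences of at least 5 RPM alone, the log2 difference of the sum was 0.024, the 27 nt difference 0.157 points, the 28 nt difference 0.284 points, and 3 of 11 values varied with input, against 0 of 11. Counting distinct sequences, the share of piRNAs differed by 2.12 points, the 26 nt share by -0.454 (now past the threshold) and the last-U share by 0.0502. The sum differed by -0.0673 over reads other than microRNA reads, -2.86 per methylated spike-in read and -2.52 per spike-in read. Without the 10 ng libraries, an alternative chosen after seeing the data, the 28 nt share differed by 0.116 points. Leaving out 1 library gave 0.571 to 0.905 points for last U, which lost its call without before 10 ng replicate 2 (0.643). The cause was not tested.

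Calls of short 5' U sequences moved as follows. With a pseudocount of 0.1 there were 146 at 50 ng and 50 at 100 ng, and with 10 there were 118 at 100 ng and 147 between inputs before oxidation. With no filter there were 4595, 1486 and 1591 at 10, 50 and 100 ng, 1863 between inputs before oxidation and 207 varying with input. At 50 RPM there were 150 averaged, 238 at 10 ng, 53 at 50 ng, 248 between inputs after oxidation and 174 varying with input. Methylated spike-ins gave 4887 averaged, 4493, 4092 and 3776 at 10, 50 and 100 ng and 247 between inputs before oxidation. Quantile normalization gave 644, 269, 251 and 574 at 50 ng, at 100 ng, between inputs before oxidation and varying with input. edgeR gave 106, 41 and 42 and DESeq2 547, 260 and 288 for the first 3 of these. The 4 libraries compared alone gave 1581, 508 and 899 at 10, 50 and 100 ng, 1073 before and 1297 after between inputs. Of the alternatives chosen after seeing the data, asking 5 RPM before oxidation gave 363 at 50 ng, 192 at 100 ng and 146 between inputs before oxidation, and leaving out the 10 ng libraries gave 979 and 535 at 50 and 100 ng. The replicate block gave 49 calls at 100 ng and 39 between inputs before oxidation, and moved no other count by over 1.5 times. Its adjusted p was 0.0382 for the values that passed without it. Deviations of same-numbered libraries correlated by -0.0066, 0.0056 and 0.017 at 10, 50 and 100 ng, so the libraries share only a number.

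Leaving out 1 library gave 1535 to 3368 calls averaged, 1978 to 3930, 29 to 1018 and 4 to 553 at 10, 50 and 100 ng, 0 to 712 before and 1550 to 3809 after between inputs, and 727 to 3044 varying with input. The highest counts came without after 10 ng replicate 1 or 2. The lowest came without before 50 ng replicate 2 at 50 ng (29) and without before 100 ng replicate 1 at 100 ng (4), and without before 10 ng replicate 2 for variation with input (727). At 50 ng, 37 were left without before 50 ng replicate 1, 90 without after 50 ng replicate 2, and 124 and 125 without before 100 ng replicates 1 and 2. At 100 ng, 18 and 13 were left without after 100 ng replicates 1 and 2, 9 without before 100 ng replicate 2, and 40 without either before 50 ng replicate.

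Fold changes that turned sign were those of the 28 nt sequence of 1700001L05Rik of rank 8 (-0.0818 centred, -2.86 by spike-ins, -0.0589 by quantiles, -0.32 by TMM, -0.55 by DESeq2), rank 6 (-0.107, -2.88, -0.0536, -0.35, -0.58 in that order), and 1700001L05Rik rank 31 (-2.74 by spike-ins, -0.0177 by quantiles, -0.22 by TMM, -0.45 by DESeq2). The Gm43353 26 nt sequence had -2.74, -0.0275, -0.22 and -0.45 under those 4, and rank 2 had -2.72 by spike-ins, -0.17 by TMM and -0.40 by DESeq2. By spike-ins and DESeq2, 1700001L05Rik 27 nt had -2.31 and -0.00344 and Gm49794 26 nt -2.42 and -0.11. By spike-ins alone, the 28 nt sequence of Gm43959 and Gm5878 had -0.87 and Gm14244 28 nt -0.14. Without the 10 ng libraries, Gm49794 27 nt had 0.013 and Gm10619 26 nt 0.22. Of the other values of named sequences, 737 kept direction and call, 18 lost the call and 18 gained it.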
